A study of Homo sapiens with 7 samples.

Results

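The genes described here encode the MYC, MAX and MXD network of transcription factors: MYC, MYCN, MYCL, MAX, MXD1, MXI1, MXD4, MNT, MGA and MLX. The 10 genes were taken by name from 20056 protein-coding genes of the GRCh38.p14 annotation, and every peak whose centre lay inside the span of one of them or within 10 kb of it was collected. This gave 25 of the 37164 peaks in 6 lists, of which 19 came from MYC and 6 from ATF4 immunoprecipitations. The rule goes by gene names and positions and uses no measured value, though the genes were picked with earlier results of these data known.

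The cells were DLD-1, an established human colon adenocarcinoma line, infected with a retrovirus that expresses MycER, a MYC protein fused to the hormone-binding part of the estrogen receptor that becomes active when 4-hydroxytamoxifen is added. Chromatin immunoprecipitation followed by sequencing (ChIP-seq), which reads the DNA held by one protein, was done for MYC in 2 libraries and for ATF4 in 2 libraries after 8 hr of MYC activation with 500 nM 4-hydroxytamoxifen, and for ATF4 in 2 libraries of control cells, for which the protocol names a vehicle. An IgG sample was not analysed here. All groups carry MycER, no group had the inducer without it, and MYC binding in control cells was not analysed here. MycER carries MYC coding sequence, so in these lists fragments of the transgene and of the cells' own MYC gene cannot be told apart, nor can MycER and the cells' own MYC protein. The labels do not say whether replicates were separate cultures, so p-values measure only the spread between these libraries, which may be technical.

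MYC family proteins bind DNA as heterodimers with MAX, most strongly at the E-box sequence CACGTG, and activate growth genes. The MXD proteins (MXD1, MXI1 and MXD4), MNT and MGA compete with MYC for MAX and repress transcription, MXD and MNT through SIN3 corepressors and MGA as part of a polycomb complex. MLX is a related partner that pairs with the glucose-sensing factors MLXIP and MLXIPL and with some MXD proteins, and ATF4 switches on amino acid synthesis and other genes when cells are under stress. Peaks of MYC at these genes are therefore peaks at genes for its own partner and its competitors.

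The RefSeq table of starts (GRCh38.p14, 250 bases before to 50 after each start) held 14 windows for 9 of the 10 genes, all but MYC. The E-box CACGTG, which reads the same on both strands, was in 3 of the 14 windows, at MXD4, MNT and MLX, and in 7.26% of all 35116 windows. The related form CACGCG, or CGCGTG on the other strand, was in 2 of the 14, at MXI1 and MGA, and in 11.4% of all windows. The word TGATGCAA, or TTGCATCA on the other strand, which ATF4 and CEBP proteins bind as a pair, was in 0 of the 14 and in 0.866% of all. No MYC peak overlapped any of the 14 windows, and the 3 E-boxes lay 16950.5 bp (MXD4), 1071.5 bp (MNT) and 3881.5 bp (MLX) from the nearest MYC peak centre at the gene. A match describes the letters in the window and not an occupied site. The 250 bases before the start of these 3 genes are shown because they hold the E-box, in capitals, without a MYC peak over it. Those of MXD1 are shown because MXD1 has the strongest MYC region upstream of a member's start and this window lacks the E-box.
MXD4 (chr4:2262110-2262359, minus strand): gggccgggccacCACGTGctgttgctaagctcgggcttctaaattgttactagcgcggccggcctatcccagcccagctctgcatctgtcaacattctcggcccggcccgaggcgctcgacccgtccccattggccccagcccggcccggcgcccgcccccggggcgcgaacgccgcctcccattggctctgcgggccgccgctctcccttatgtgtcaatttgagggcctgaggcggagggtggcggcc
MNT (chr17:2401061-2401310, minus strand): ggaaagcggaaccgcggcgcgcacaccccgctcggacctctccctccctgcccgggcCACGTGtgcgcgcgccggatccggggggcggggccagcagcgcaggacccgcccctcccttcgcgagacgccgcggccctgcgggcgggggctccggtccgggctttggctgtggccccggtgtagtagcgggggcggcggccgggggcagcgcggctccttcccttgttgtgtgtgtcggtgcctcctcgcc
MLX (chr17:42566850-42567099, plus strand): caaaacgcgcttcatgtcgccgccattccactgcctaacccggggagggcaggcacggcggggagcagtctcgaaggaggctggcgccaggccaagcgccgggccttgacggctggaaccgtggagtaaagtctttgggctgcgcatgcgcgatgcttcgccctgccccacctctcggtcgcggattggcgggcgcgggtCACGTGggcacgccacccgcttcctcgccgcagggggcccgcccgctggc
MXD1 (chr2:69914859-69915108, plus strand): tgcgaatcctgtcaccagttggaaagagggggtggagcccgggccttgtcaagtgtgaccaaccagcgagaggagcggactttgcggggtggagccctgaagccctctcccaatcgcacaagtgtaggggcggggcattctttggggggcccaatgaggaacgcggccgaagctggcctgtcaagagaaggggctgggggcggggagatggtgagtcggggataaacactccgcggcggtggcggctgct
Of the 25 member peaks, 1 was covered by a window of the table, the MYC peak of replicate 2 beside PSMC3IP. Its 177 bases hold neither form of the E-box searched.
PSMC3IP (chr17:42577820-42577996, minus strand): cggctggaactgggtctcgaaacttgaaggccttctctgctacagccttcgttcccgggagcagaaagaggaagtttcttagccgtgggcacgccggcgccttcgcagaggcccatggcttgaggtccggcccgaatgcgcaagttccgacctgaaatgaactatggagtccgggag

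Signal is given as the authors' normalized tag count, that is tags per 10 M tags of a library, called tags here. The background is the tag count of the authors' background library at the same peak, put on the same scale. Intervals in brackets are exact Poisson 95% intervals of the reads behind the tags and cover counting error only. The MYC libraries held 21.04 and 50.11 M tags in replicates 1 and 2, the ATF4 libraries of activated cells 24.95 and 49.75 M and those of control cells 22.4 and 50.28 M, so replicate 2 is deeper throughout. The lists start at 3.8 and 2.39 tags for MYC, 3.21 and 2.81 for ATF4 in activated cells and 4.46 and 2.98 for ATF4 in control cells.

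MYC had a region found in both libraries at MAX, MXI1, MXD1 and MXD4, which is 4 of the 10 genes. Of all protein-coding genes, 25.2% had such a region by the same rule. The strongest was inside MAX, the obligate partner of MYC, and ranked 31 of the 6313 regions that MYC occupied in both libraries. In replicate 2 alone MYC also had peaks at MYCN, MNT, MGA and MLX, so that 8 of the 10 genes had one, against 59.4% of all genes, while replicate 1 alone gave 4 of 10 against 29.7%. MYC and MYCL had no MYC peak in either library, as did 7867 of all 20056 protein-coding genes. Gene length bears on the rule, and the members' spans ran from 6.10 to 149 kb with a median of 15.8 kb, against a median of 24.1 kb over all protein-coding genes.

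**Figure D1:**
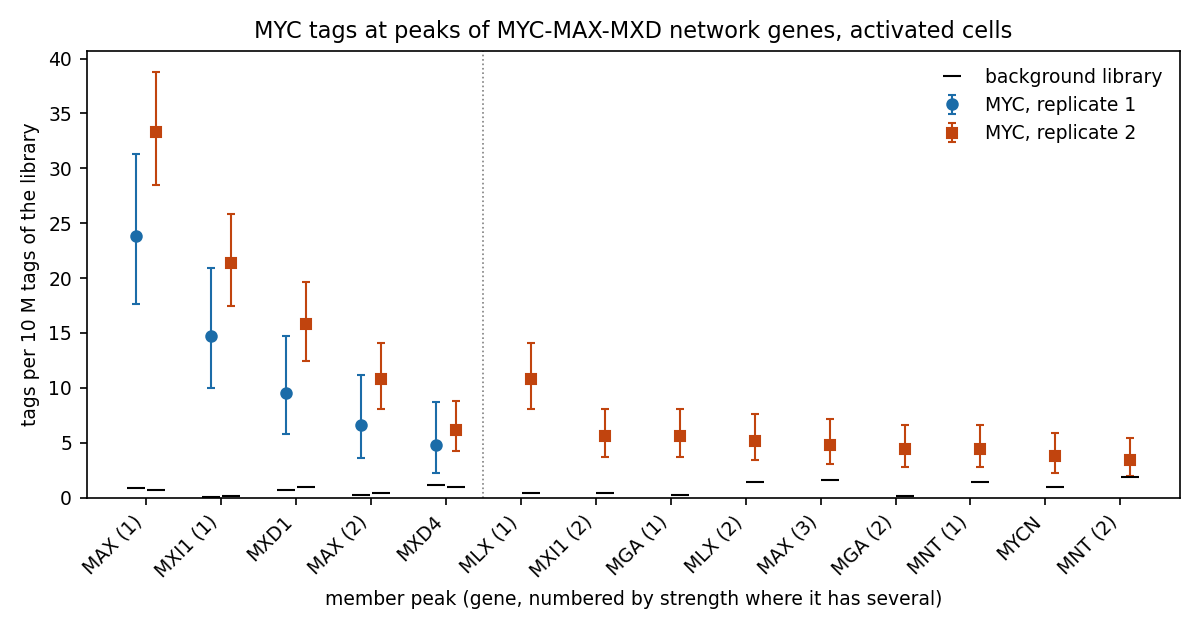
MYC tags per 10 M tags (y axis) at each of the member peaks (x axis), with circles for replicate 1, squares for replicate 2, bars for the exact Poisson 95% interval of the reads and black dashes for the background library; the dotted line separates the 5 regions found in both libraries from the peaks of replicate 2 alone. The region inside MAX had 23.8 and 33.3 tags, and in the 5 regions found in both libraries replicate 2 was the higher. Peaks of replicate 2 were also wider, at 177 bp against 149 bp.

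At MAX the strong region lay inside the gene on chromosome 14, from 65070642 to 65070790 in replicate 1 and from 65070563 to 65070739 in replicate 2. It had 23.8 tags (17.6 to 31.3, 50 reads) and 33.3 tags (28.5 to 38.8, 167 reads) in replicates 1 and 2, against 0.904 and 0.692 background tags. Both libraries were far above their background, with folds of 25.7 and 48.1 by the authors' values, and the region averaged 28.55 ± 6.72 tags (SD, n = 2), higher than 99.5% of the regions found in both. It lay about 31 kb downstream of the nearest listed MAX start, at 30968 and 31033 bp. A weaker MAX region found in both libraries lay 214 and 196 bp beyond the end of the span where MAX starts (chromosome 14, 65102803 to 65102983), with 6.65 and 10.8 tags in replicates 1 and 2. A further MAX peak, in replicate 2 only, lay 875 bp beyond the same end with 4.79 tags. So the strongest MYC region of the network was far from the start of its gene, while the region at the start was near the typical one, higher than 62.8% of the regions found in both libraries.

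Among the antagonists, MXI1, a MAX-binding repressor also called MXD2, had the highest tags. Its region on chromosome 10 (110211130 to 110211306) had 14.7 tags (10.0 to 20.9, 31 reads) and 21.4 tags (17.5 to 25.8, 107 reads) in replicates 1 and 2, against 0.095 and 0.116 background tags. These background values are the lowest that each list gives, below 1 background read, so no fold over background is given here. The region lay 999 and 987 bp downstream of the second of the 3 MXI1 starts in the RefSeq table. A second MXI1 peak, in replicate 2 only, had 5.59 tags and lay 289 bp downstream of the third start.

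MXD1, the MAX-binding repressor first described as MAD1, had a region 875 and 849 bp upstream of its start on chromosome 2 (69914160 to 69914348). It held 9.51 tags (5.81 to 14.7, 20 reads) and 15.8 tags (12.5 to 19.6, 79 reads) in replicates 1 and 2, against 0.713 and 0.925 background tags, and was higher than 85.1% of the regions found in both libraries. MXD4, a further MXD repressor, had the weakest region of the 4 genes (chromosome 4, 2245306 to 2245482), with 4.75 tags (2.28 to 8.74, 10 reads) and 6.19 tags (4.2 to 8.78, 31 reads) in replicates 1 and 2. This was higher than 18.1% of the regions found in both libraries. It lay 2048 and 2038 bp beyond the end of the span opposite to the MXD4 start and 16725 and 16715 bp from that start. The nearest listed start was that of another gene, POLN, which encodes a DNA polymerase.

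MNT, a repressor present in both growing and resting cells, had peaks in replicate 2 only, at 4.39 tags 881 bp downstream of its start and at 3.39 tags 8545 bp downstream of it (chromosome 17, 2400091 to 2400267 and 2392427 to 2392603). The weaker of these was 1.84-fold over background by the authors' values, and 0.34% of the peaks in its list had a lower fold. MGA, which carries a T-box as well as a MAX-binding domain, had 2 peaks in replicate 2 only, at 4.39 and 5.59 tags and 193 and 934 bp downstream of the last of its 3 listed starts (chromosome 15, 41660852 to 41661028 and 41661593 to 41661769). Neither lay near the start at the end of the MGA span. Of the 9 peaks that replicate 2 alone held, 1 had over 6 tags, and it lay near MLX. The MYCN peak (3.79 tags) and the weaker MNT peak were under the 3.8 tags of the lowest MYC peak in replicate 1. The others were above that level, though replicate 1 listed none there.

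The peaks assigned to MLX lay closer to other genes. The stronger, with 10.8 tags (8.10 to 14.1, 54 reads) in MYC replicate 2, lay 3929 bp from the MLX span (chromosome 17, 42563083 to 42563259) and inside COASY, the gene of coenzyme A synthase. The other, with 5.19 tags in replicate 2, lay 77 bp upstream of the start of PSMC3IP, a recombination factor gene, and 4705 bp from MLX. MYCN, the MYC paralogue of neural development, had 1 MYC peak, in replicate 2 only, at 3.79 tags, 440 bp upstream of its start and inside the antisense transcript gene MYCNOS (chromosome 2, 15940022 to 15940198). This peak was 4.1-fold over background by the authors' values, and 19.2% of peaks in the list had a lower fold.

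**Figure D2:**
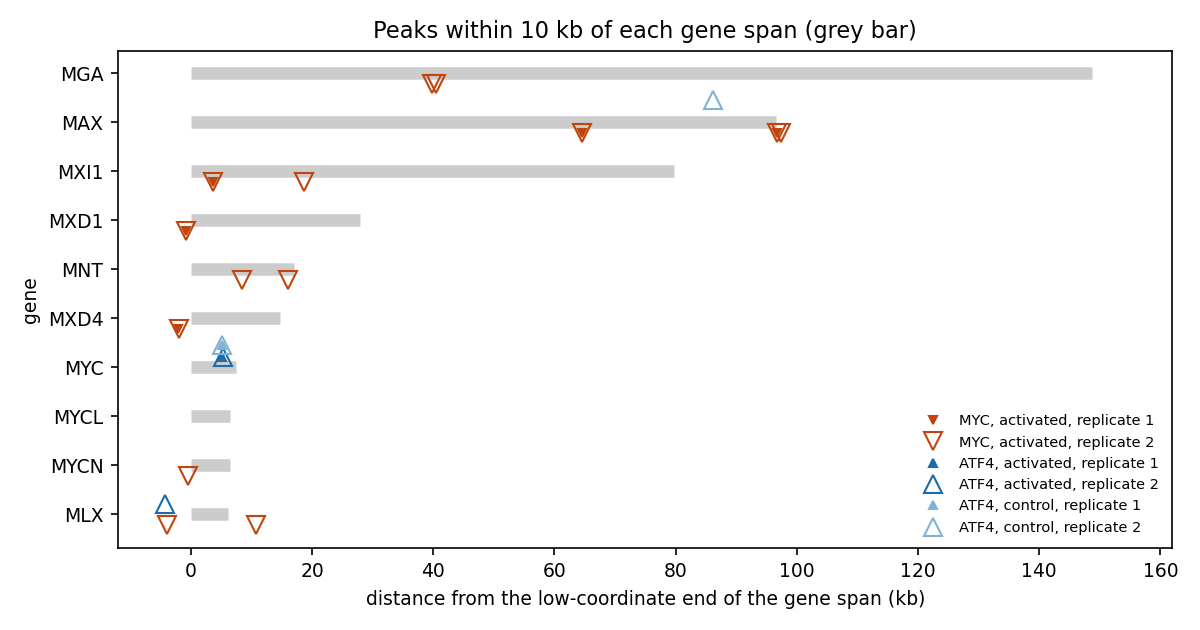
Peak centres (x axis, kb from the low-coordinate end of the span) at each gene (y axis, longest span at the top), with grey bars for the gene spans, downward triangles for MYC and upward triangles for ATF4, small filled triangles for replicate 1 and large open ones for replicate 2. MYC triangles of both replicates coincide at MAX, MXI1, MXD1 and MXD4, and ATF4 triangles of 4 libraries coincide inside MYC.

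Agreement between the MYC libraries was like that of other regions. Replicate 2 over replicate 1 was 1.40 inside MAX, 1.62 beside MAX, 1.46 at MXI1, 1.66 at MXD1 and 1.30 at MXD4. The median over all 6313 regions was 1.39, with quartiles of 1.11 and 1.71. MYC peaks were 149 bp wide in replicate 1 and 177 bp in replicate 2, so replicate 2 tags cover more bases. The part of this in the ratios was not tested. The centres of the peak in replicates 1 and 2 lay 65 bp apart in the region inside MAX and 10 to 26 bp apart in the other 4. Of the 5 regions, 3 lay within 1000 bp of a RefSeq start (beside MAX, MXI1 and MXD1). MXI1 met this limit narrowly, at 999 and 987 bp. Over all MYC regions found in both libraries on chromosomes with listed starts, the share was 29.8% (1772 of 5943). That share includes regions far from any gene, while the member regions were taken within 10 kb of a gene. The 2 sets are therefore unlike, and nothing is drawn from the difference.

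The MYC gene and MYCL had their nearest MYC peaks outside the window. For the MYC gene (chromosome 8, 127735434 to 127742951) the nearest MYC peaks were each found in 1 library. They lay 22347 bp away in replicate 1 (4.75 tags) and 39749 bp away in replicate 2 (4.59 tags). The nearest regions found in both libraries lay about 52 kb away, at the beginning of PVT1, the long noncoding RNA gene next to MYC. The first had 6.18 and 7.18 tags in MYC replicates 1 and 2 and lay 259 and 185 bp from the end of PVT1 that faces MYC, and the second had 5.70 and 8.58 tags. For MYCL, the paralogue found amplified in lung cancer, the nearest region lay 12281 and 12216 bp away, just outside the window (6.18 and 10.4 tags). It lay 3 and 62 bp from an end of MYCL-AS1, an antisense gene of MYCL. With a window of 20 kb, chosen after seeing the data, MYCL was counted too, and 5 of the 10 genes had a region found in both libraries, against 30.8% of all genes.

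ATF4 had a region at 1 of the 10 genes in both activated libraries, and at the same gene in both control libraries, and that gene was MYC. Of all protein-coding genes, 1.4% had an ATF4 region in both activated libraries and 0.524% in both control libraries. The ATF4 peak inside MYC lay on chromosome 8 between 127740476 and 127740789, about 5 kb into the span. The annotation used gives no exons, so the peak was not assigned to an exon or an intron. ATF4 had 7.22 tags (4.28 to 11.4, 18 reads) and 8.04 tags (5.74 to 10.9, 40 reads) in activated replicates 1 and 2, against 9.38 tags (5.80 to 14.3, 21 reads) and 7.16 tags (5.02 to 9.91, 36 reads) in control replicates 1 and 2. The groups overlapped.

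The background library was also high at this peak. It gave 3.69 and 4.39 tags at the peaks of activated replicates 1 and 2 and 3.93 and 4.62 tags at those of control replicates 1 and 2. These peaks overlap, and background depth was 43.28 and 43.3 M tags in the replicate 2 lists of activated and control cells. The 4 background values may thus come from 1 library and are not 4 separate measurements of the background. The authors' folds over background were therefore low, at 1.95 and 1.83 in activated cells and 2.39 and 1.55 in control cells, with the authors' p-values of 0.00672 and 0.00121 in activated cells and 0.000328 and 0.0218 in control cells. The median peak of these lists had a fold of 5.21 and 4.57 in activated cells and 4.64 and 3.44 in control cells. Above background, ATF4 had 3.53 and 3.65 tags in activated cells and 5.45 and 2.54 tags in control cells. Among the 105 regions with an ATF4 peak in all 4 libraries, the mean background of 4.16 tags at MYC was exceeded at 5, and the median was 0.804 tags.

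**Figure D3:**
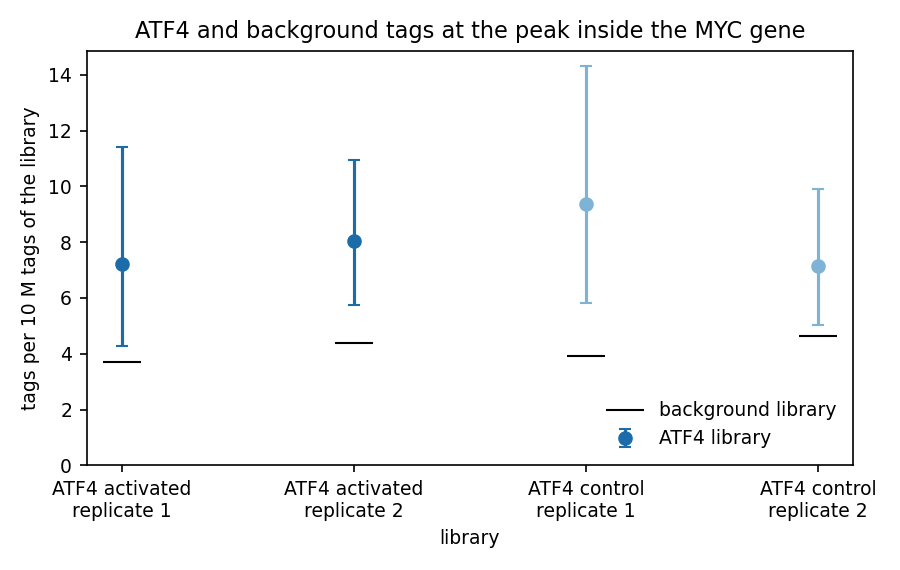
ATF4 tags per 10 M tags (y axis) at the peak inside the MYC gene in each library (x axis), with circles for the ATF4 library, bars for the exact Poisson 95% interval of the reads and dashes for the background library. The 4 ATF4 values lie between 7.16 and 9.38 tags and the background between 3.69 and 4.62 tags, and the intervals overlap.

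The shape of the ATF4 peak inside MYC also stood apart from the other common regions. The peak centres of the 4 libraries spread over 126 bp, against a median of 28 bp, and 2 of the 105 regions had a wider spread. The focus ratio is the authors' share of a peak's tags on the side where a bound site would place them. It averaged 0.615 at MYC, against a median of 0.853, and 1 region had a lower mean. In activated replicate 1 it was 0.742, and 33.8% of the peaks in that list were lower, so it was not unusual there. It was 0.542 in activated replicate 2 and 0.588 in each control replicate. With at least 0.5 of the shorter peak as the overlap, the peaks of the 2 activated libraries no longer counted as one region. With a fold over background of at least 4 no ATF4 region was left at any of the 10 genes in either condition. Of all genes, 1.15% in activated and 0.409% in control cells had a region at that fold. No MYC list had a peak inside the MYC gene.

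The question of whether MYC activation changed ATF4 at these genes could be tested at the MYC region alone, since no other member had an ATF4 peak in all 4 libraries. Tags are those of each library's own peak, 171 and 205 bp wide in activated and 185 and 213 bp in control replicates 1 and 2. The values compared therefore come from partly different bases, and the effect of this was not tested. ATF4 averaged 7.63 ± 0.58 tags in activated cells and 8.27 ± 1.57 tags in control cells (SD, n = 2 each). On the log2(tags + 1) scale the change was -0.09 with a standard error of 0.29 and a 95% interval of -0.66 to 0.47 (limma adjusted p = 0.796 over the 105 regions). Within replicate 1 the change was -0.34 and within replicate 2 it was 0.15. The two-sided exact permutation test over libraries gave p = 1.0 for tags and for tags over background, where 0.33 is the smallest p that 2 against 2 libraries allow. Of the 105 regions, 39 were higher in activated cells (37.1%) and 0 were lower (0.0%) by limma at an adjusted p under 0.05, with 57 and 0 at an unadjusted p under 0.05. Leaving out any 1 of the 4 libraries brought the 39 to 0, and centring the libraries on their medians gave 0 higher and 9 lower.

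The change at MYC was among the lowest of the 105 regions, of which 5 had a lower one. The median change over the regions was 0.54, so that MYC lay 0.63 below it. When each library was centred on its median over the regions, which removes this shared shift, the change at MYC was -0.74 and passed as lower (limma adjusted p = 0.0343), so the call depends on the scaling. The 6 regions with as much background as MYC or more, MYC included, had changes between -0.25 and 0.26 with a median of -0.05, and none was called higher. Apart from MYC, these 5 regions lay 35214 to 3710914 bp from the nearest annotated gene, so they are not sites inside genes like that at MYC. The other 99 regions had a median change of 0.57, and 39 were called higher. The part of the background in the change at MYC was not tested.

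**Figure D4:**
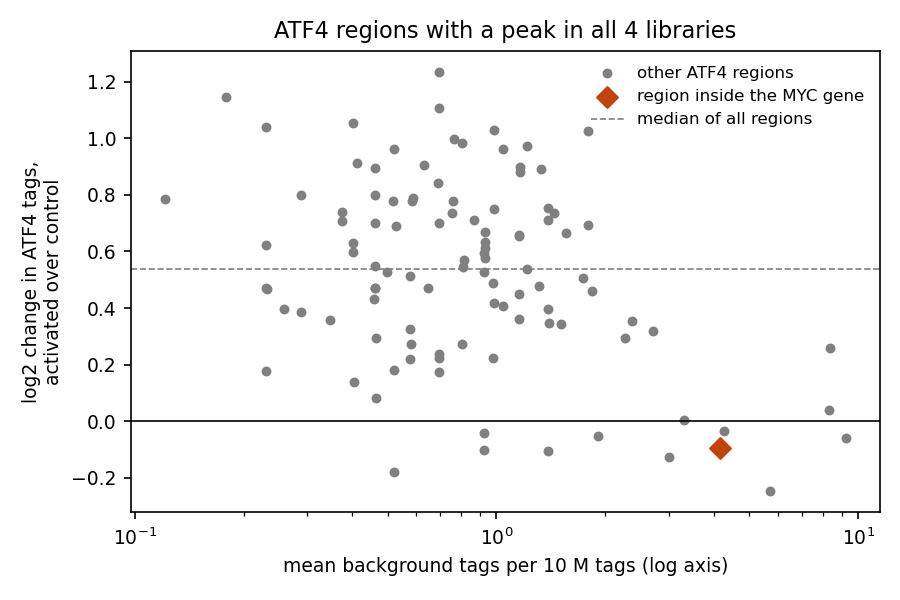
Log2 change in ATF4 tags, activated over control (y axis), against mean background tags per 10 M tags on a log axis (x axis) for the 105 regions with an ATF4 peak in all 4 libraries, with a diamond for the region inside the MYC gene and a dashed line for the median change of 0.54. The 6 regions with the most background, the diamond among them, lie between -0.25 and 0.26. All of them but the diamond lie 35214 bp or more from the nearest annotated gene.

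The remaining ATF4 peaks at the network were each found in 1 library. MLX had 1 in activated replicate 2 at 4.82 tags (chromosome 17, 42562733 to 42562937), inside COASY and 2.98-fold over background by the authors' values. It lay beside the MYC peak of replicate 2 in the same gene, without overlapping it. MAX had 1 in control replicate 2 at 4.37 tags (chromosome 14, 65092171 to 65092383), 9.47-fold over background by the authors' values, inside MAX and inside the span of the antisense gene MAX-AS1. The MAX peak was under the 4.46 tags of the lowest peak in control replicate 1, so that list could not have shown it at this level, while the MLX peak was above the 3.21 tags of the lowest peak in activated replicate 1, which listed none there.

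Genes other than members with ATF4 peaks in all 4 libraries and no MYC peak in the window, as at MYC, numbered 3. By the distance between log2(tags + 1) of the strongest peaks over these 4 libraries, KHSRP, an RNA-binding splicing protein, was the most like MYC (distance 0.96, its activated libraries holding 4.81 and 5.43 tags, against 5.80 and 5.96 tags in the control libraries). FBXO31, a ubiquitin ligase subunit, followed at 1.11 and CCR7, a chemokine receptor, at 1.15. CCR7 had 14.8 and 13.1 tags in activated cells and 8.48 and 7.75 in control cells.

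Genes whose products work with the network carried MYC regions at differing rates, counted by the same rule and read beside the 25.2% of all genes. Of MYC coactivators and partners, 10 of 15 had a MYC region in both libraries, the highest being RUVBL1, a helicase of chromatin remodelling complexes (12.4 and 23.7 tags in replicates 1 and 2), WDR5, a histone methyltransferase subunit (12.8 and 16.4 tags), and PRMT5, an arginine methyltransferase (7.61 and 20 tags). Of the corepressors used by MXD and MNT, 5 of 14 had one, among them BRMS1, a subunit of the SIN3 complex (17.6 and 25.5 tags), and NCOR1, a nuclear receptor corepressor (13.3 and 18.2 tags). Of the subunits of the MGA complex, 5 of 10 had one, WDR5 and L3MBTL2 (8.08 and 10.6 tags) among them. Of regulators of MYC protein turnover, 3 of 12 had one, the kinase PLK1 (6.65 and 11.8 tags), the ubiquitin ligase subunit FBXW7 (5.23 and 5.99 tags) and the phosphatase inhibitor CIP2A (4.75 and 6.19 tags). MXD3, MLXIP and MLXIPL, the network genes outside the 10, each had a MYC peak in replicate 2 but no region found in both libraries. Of all genes, 59.4% had a MYC peak in replicate 2. None of these lists held a gene with an ATF4 region in both libraries of a condition. Of all genes, 1.4% had one in activated and 0.524% in control cells, so lists this short need not hold any.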

How the data were processed

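Each library has its own peak list. The submitters' processing notes name Bowtie 0.12.9, HOMER and hg38. Per the file headers, the authors' normalized tag count is a signal of tags per 10 M tags. Total tags are a deposited count in replicate 1 and a scaled signal in replicate 2, per the file headers. The peak score and the focus ratio, a fraction of tags, were computed by the authors' peak caller, per the file headers. The fold over background, a ratio, and its p-value were computed by the authors' peak caller against a background library that the headers do not name.

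Depth was computed here from totals in replicate 1 and from the steps between low tag counts in replicate 2. Peaks sharing 1 bp or more formed a region, and a gene held a region when each library had a peak centre within 10 kb of its span. The 105 ATF4 regions present in all 4 libraries were tested with limma 3.58.1 (trend, R 4.3.3) on log2 of tags plus 1, Benjamini-Hochberg adjusted, threshold 0.05, after a test on simulated data. Replicate 2 totals are scaled, so a count test was not used. Tags were those of each library's own peak, and peak width differed between libraries. All members are named, and at most 3 genes by mean tags in each other list. The members and lists were chosen with earlier results of these data known.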

Additional observations from a re-analysis of the deposited data

How the results depend on the processing

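The count of genes with a MYC region in both libraries, 4 of 10, stayed at 4 with a fold over background of at least 4 (23.2% of all genes). It was also 4 with 0.5 of the shorter peak as the overlap (23.2%) and with a common lowest tag count (24.6%). It was 2 with the gene span alone (MAX and MXI1, against 14.3% of all genes) and 2 within 1 kb of either end of the span (MAX and MXD1, against 9.99%). With 1 replicate left out it was 4 to 8, against 29.7% to 59.4% of all genes. The count for ATF4 in activated cells, 1, was 0 within 1 kb of either end (0.194% of all genes), 0 with a fold of at least 4 (1.15%) and 0 with the stricter overlap (1.36%). For ATF4 in control cells it was 0 within 1 kb of either end (0.0698% of all genes) and 0 with a fold of at least 4 (0.409%). Each was 1 to 2 with 1 replicate left out, while the share of all genes was 4.28% to 7.75% in activated cells (1.4% with both libraries) and 2.95% to 5.36% in control cells (0.524% with both). The mean of 28.55 tags inside MAX was 23.8 to 33.3 with 1 replicate left out and 28.65 with scaling to the library medians.

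The 39 higher and 0 lower ATF4 regions became 0 higher and 9 lower when libraries were centred on their medians, with 2 and 18 at an unadjusted limma p under 0.05. Leaving out 1 library gave 0 higher and 0 lower, with 24 to 47 higher and 0 to 1 lower at an unadjusted limma p under 0.05, and the lone sample was assumed to vary like the other group. With the replicate block 0 regions were higher, with 37 at an unadjusted limma p under 0.05 and a smallest adjusted p of 0.115. The labels do not say that a replicate number marks a shared culture, and deviations of same-numbered libraries correlated at 0.0976 over the 105 regions, so the block is no main design. At the MYC gene the change of -0.09 was -0.74 with centring (limma adjusted p = 0.0343), -0.09 with the replicate block and -0.27 to 0.0792 with 1 library left out, the positive value coming without control replicate 1. Its limma adjusted p ran from 0.0343 to 0.936 over the alternatives. The causes were not tested. Shallow replicate 1 lists, with 10 to 50 reads at the 5 shared member regions, limit what can be called there.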

Other observations

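Markers of the labelled cell type and of other cells were counted as genes with a MYC region in both libraries, since peak lists do not measure expression. Of all protein-coding genes, 25.2% had such a region. Of 12 colon epithelial markers, 6 had one, the highest being KRT8, an epithelial keratin (10.9 and 14.6 tags in MYC replicates 1 and 2), CDH1, the epithelial cadherin (9.51 and 12.6 tags), and CDX2, an intestinal transcription factor (9.03 and 8.58 tags). Of 12 blood and fibroblast markers, 4 had one, with CD68, a macrophage glycoprotein, at 9.03 and 19.6 tags, COL1A1, a collagen chain, at 5.70 and 13.2 tags and PDGFRB, a growth factor receptor, at 6.65 and 7.18 tags. With 12 genes in each list, these counts are given as a description and not as a result about the markers.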
